A study of Mus musculus with 6 samples.

Results

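The clustered replication-dependent histone genes were examined in 4T1-T VM cells that took up much or little acetylated low-density lipoprotein (acLDL). The genes were all those whose symbol begins with Hist1h, Hist2h, Hist3h or Hist4h in the authors' protein-coding gene table, which gave 61 of 15973 genes. They comprised 6 linker histone H1, 15 H2A, 16 H2B, 11 H3 and 13 H4 genes. On the mm10 genome build (GRCm38), 50 of them lie on chromosome 13, 8 on chromosome 3, 2 on chromosome 11 and 1 on chromosome 6, and 58 have a transcript model with a single exon.

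4T1-T is a sub-clone of the mouse mammary carcinoma line 4T1 that can perform vasculogenic mimicry (VM), the formation of vessel-like networks by tumour cells themselves. All cells were starved of serum overnight in Opti-MEM with 0.3% BSA, given 10 ug/mL of Alexa-488 labelled acLDL for 4 h, washed, returned to complete medium for 1 h and then sorted. The brightest 25% formed the acLDL high population and the dimmest 25% the acLDL low population, each with 3 libraries, so every library comes from 1 sub-clone and no unlabelled or unstarved cells are among the samples. The submitters state that the experiment was done on 3 occasions, and libraries of the 2 populations with the same replicate number are called an occasion here.

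Replication-dependent histones package newly made DNA, and their genes are switched on as cells enter S phase. Their mRNAs are the only known animal mRNAs that normally lack a poly(A) tail: the pre-mRNA is cut just after a conserved stem-loop in the 3′ UTR, which is bound by the stem-loop binding protein SLBP. Replacement histones, in contrast, are made throughout the cell cycle from ordinary polyadenylated mRNAs. Some replication-dependent genes can also yield longer, polyadenylated transcripts when cells stop dividing or differentiate. This matters for reading the counts, because these libraries were made from RNA selected by its poly(A) tail.

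The stem-loop was searched in GENCODE M21 transcripts as 16 bases, with a perfectly paired stem of 6 bases and a loop of 4 bases. The stem starts with GG and the loop with TTT. Anywhere in the longest transcript, it was found in 39 of the 61 histone genes (63.9%), and in 28 of 21840 other protein-coding genes (0.128%). The positions and groups given below are of stem-loops after the stop codon of the histone genes. A model that ends at the stop codon could not show one there. The sequences below are shown because they mark the processing site in 5 of the 7 genes with most counts, and in Hist1h2ab and Hist1h4n, which had at most 5 counts in any library. Capitals mark the stem-loop.
Hist1h1c: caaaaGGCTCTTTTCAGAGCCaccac
Hist1h4i: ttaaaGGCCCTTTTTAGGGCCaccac
Hist1h1d: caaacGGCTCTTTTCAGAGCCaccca
Hist3h2a: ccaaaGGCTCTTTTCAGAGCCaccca
Hist2h4: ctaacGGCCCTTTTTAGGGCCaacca
Hist1h2ab: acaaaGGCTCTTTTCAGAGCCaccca
Hist1h4n: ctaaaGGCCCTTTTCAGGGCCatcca
The stem-loops lie in the 3′ UTR at chr13:23739512-23739527 (plus strand) in Hist1h1c, chr13:22040966-22040981 (minus strand) in Hist1h4i, chr13:23555787-23555802 (plus strand) in Hist1h1d, chr11:58955172-58955187 (plus strand) in Hist3h2a and chr3:96262939-96262954 (minus strand) in Hist2h4. In Hist1h2ab the stem-loop is at chr13:23751572-23751587 (plus strand) and in Hist1h4n at chr13:21831798-21831813 (minus strand). Genes with many and with few counts thus carried the same element: Hist1h1c, Hist1h1d, Hist3h2a and Hist1h2ab shared 1 stem-loop of 16 bases, and Hist1h4i and Hist2h4 shared another.

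The annotated transcripts of these genes end at different places. The annotated transcript of Hist1h2ab ends 11 bases past the stem-loop and that of Hist1h4n 31 bases past it. The transcripts of Hist1h4i, Hist1h1c, Hist2h4, Hist3h2a and Hist1h1d run on for 330, 840, 1257, 1643 and 4884 bases. The genes also differ in how much sequence they share: 58% and 85.6% of the 50-base windows of Hist1h2ab and Hist1h4n occur in another gene, against 1% to 31.5% in the 5 others. A canonical or common variant poly(A) signal (AATAAA or ATTAAA) was searched on the transcript strand within 40 bases of the transcript end. Of these 5 others, all but Hist1h1d have one, while Hist1h2ab and Hist1h4n have none. The transcript of Hist2h2be, which has 2192 bases after the stop codon, also has one. These signals belong to 5 of the genes with most counts. Hist1h2bc and Hist1h1d, also among the genes with most counts, have no such signal within 40 bases of the end. The libraries were selected by the poly(A) tail itself, and whether these signals were used was not tested. Capitals mark the hexamer.
Hist1h1c: atgcttctAATAAAaagcgttt
Hist1h4i: ctgtttacATTAAAagtattct
Hist2h2be: ttattattAATAAAgttaccga
Hist3h2a: atatgcccAATAAAataagagt
Hist2h4: atacataaAATAAAatcttaaa
Between the hexamer and the transcript end lie 20 bases in Hist1h1c, 15 in Hist1h4i, 16 in Hist2h2be, 28 in Hist3h2a and 27 in Hist2h4. Hist1h2bc has another arrangement: its annotated transcript is spliced, with an intron at chr13:23684622-23692175 that begins 9 bases after the stop codon, and no stem-loop was found in the joined sequence.

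The 21 genes whose transcript extends at least 100 bases past the stem-loop held 26900 counts over the 6 libraries, 79.9% of the 33685 counts of all 61 genes. Of these, 21317 were Hist1h1c, and without that gene the extended models held 5583 of 12368 counts (45.1%). The 3 genes with a long model and no stem-loop, Hist1h2bc, Hist2h2be and Hist1h4a, held 17.3% of all counts, or 47.2% without Hist1h1c. The 18 genes whose model ends near the stem-loop together held 315 counts (0.935%), with a median of 14 counts per gene. The 18 with under 100 bases after the stop codon and no stem-loop held 607 counts (1.8%), with a median of 14.5. Models such as those of Hist1h4k and Hist1h1b have 0 bases after the stop codon, so they could not show a stem-loop there. For such genes, no stem-loop describes where the annotation ends and not the gene. Hist1h2bp, with a longer model and no stem-loop, had 23 counts.

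Levels are given as CPM, the counts scaled to the TMM-corrected total of each library. Per kb of exon, the median level was 0.165 CPM in the genes with an extended model, against 0.0643 in those that end near the stem-loop and 0.0804 in those with a short model and no stem-loop. The genes with an extended model also ranged the most, from 0.00446 to 28.7 CPM per kb. Hist4h4, with 2445 bases past the stem-loop, had 22 counts, and Hist3h2ba, with 169, had 6, so an extended model did not go with a high level in every gene. By the other feature, the 14 genes with a poly(A) signal near the annotated end held 78.7% of the counts and the 47 without held 21.3%, but without Hist1h1c these shares were 41.9% and 58.1%. The genes with a short model also shared more of their sequence with other genes: the median share of 50-base windows found in another gene was 59.9% for models that end near the stem-loop and 84.3% for short models with no stem-loop, against 22.1% for extended models. Reads from such windows may be lost or split between genes in counting, and the part of this in the low counts was not tested.

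**Figure D1:**
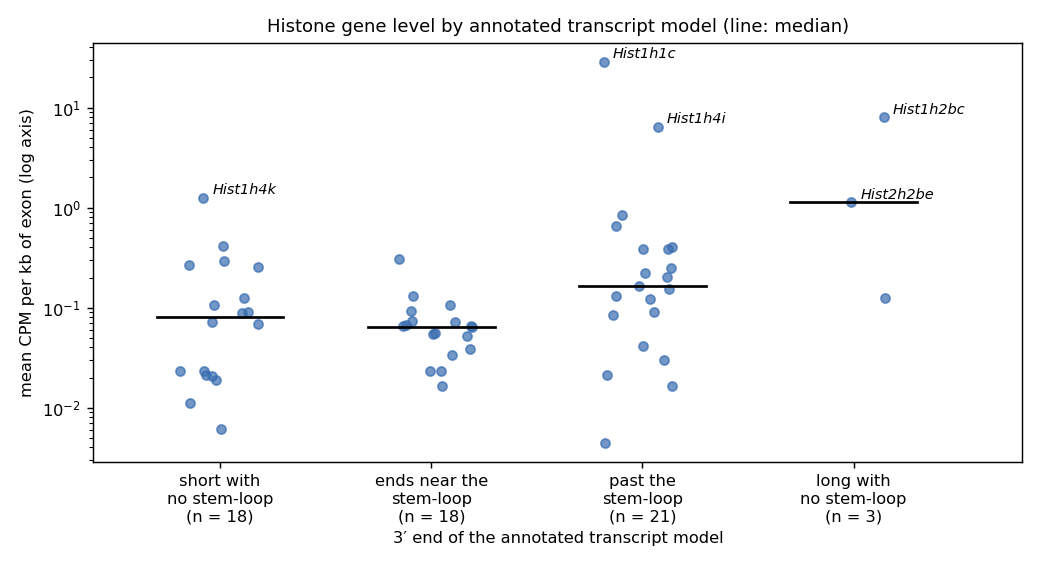
Mean level of each histone gene over the 6 libraries, in CPM per kb of exon on a log axis, by the 3′ end of its annotated transcript model; each point is a gene and each line the median of its group. Hist1h1c (28.7) and Hist1h4i (6.38), both with extended models, and Hist1h2bc (8.02), with a spliced model and no stem-loop, stand above the rest. Hist1h2bp, alone in its group, is not drawn.

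The histone counts were held by few genes. Hist1h1c (H1.2) had 63.3% of them, the 3 genes with most counts 82.8% and the 6 with most counts 91.4%. Only 14 of the 61 genes reached 10 counts in all 6 libraries, 32 reached 10 in none, and 36 were at 0 in at least 1 library. After the filter on low counts, 23 genes were tested (4 H1, 3 H2A, 7 H2B, 3 H3 and 6 H4). The 38 others had between 2 and 33 counts over the 6 libraries, at most 14 in any library, and made up 1.57% of the counts. In library terms, 3 counts corresponded to 0.0319 to 0.0423 CPM.

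Hist1h1c, a linker histone gene, was at 51.9, 35.1 and 47.1 CPM in the acLDL low libraries of occasions 1, 2 and 3 and at 51.5, 41.9 and 41.2 CPM in the acLDL high libraries. The ranges of the populations overlapped, and the fitted difference was 0.01 on the log2 scale (SE 0.068, edgeR adjusted p = 0.941). Per kb of exon, its level exceeded that of 89.4% of the genes in the table. Hist1h1d and Hist1h1e, the next linker histone genes, were at mean levels of 1.66 and 0.319 CPM.

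Hist1h2bc, the H2B gene with most counts, was at 16.4, 4.68 and 8.13 CPM in the acLDL low libraries and at 14.2, 5.76 and 6.50 CPM in the acLDL high libraries. Its highest values in both populations were those of occasion 1, and the populations overlapped (log2 fold change -0.10, SE 0.10, edgeR adjusted p = 0.641). Hist1h4i, the H4 gene with most counts, was at 6.55, 5.26 and 2.96 CPM in the low population, against 5.51, 5.29 and 2.25 CPM in the high population. Here occasion 3 was the lowest in both populations, and the fold change was -0.20 (SE 0.11, edgeR adjusted p = 0.346).

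Among H2A genes, Hist3h2a had the highest level at 1.42 CPM, but its exons overlap those of Trim17 and Gm44313 over 33% of their length, so its counts may be shared. Hist1h2ae followed at 0.283 CPM and Hist1h2ac at 0.223 CPM. The H3 genes were the lowest class: Hist1h3d was at 0.477, Hist1h3g at 0.219 and Hist2h3c2 at 0.135 CPM. Among H2B genes, Hist2h2be was at 2.97 and Hist1h2be at 0.544 CPM, the exons of the latter overlapping those of Hist1h1e. Among H4 genes, Hist2h4 was at 0.630 and Hist1h4k at 0.388 CPM, with 71.5% of the 50-base windows of Hist1h4k found in other genes.

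**Figure D2:**
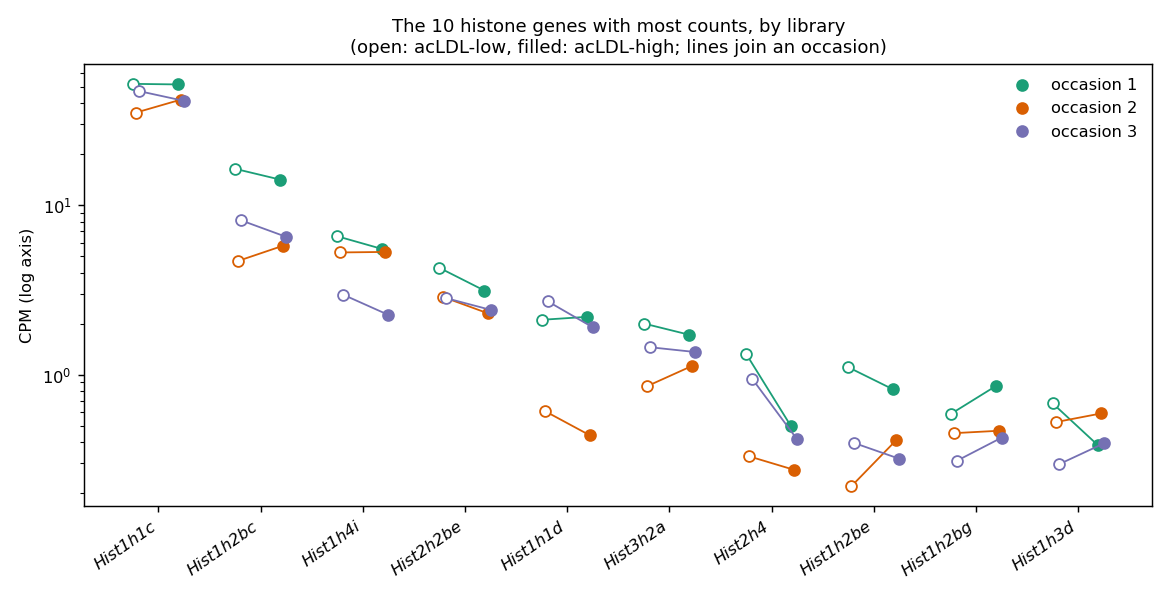
CPM on a log axis in each library for the 10 histone genes with most counts, with open circles for acLDL low, filled circles for acLDL high and lines that join the libraries of an occasion. Hist1h1c lies between 35.1 and 51.9 CPM in all 6 libraries, and Hist2h4 is the only one that passed the test between the populations. In Hist1h2bc, Hist1h1d, Hist3h2a and Hist2h4, the libraries of occasion 2 lie below all others of the gene.

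Of the 11 replacement histone genes listed, 4 were above every clustered histone gene in these libraries per kb of exon. These were H1f0, the linker histone of resting cells, at 509 CPM per kb, H3f3b, which encodes the replacement histone H3.3, at 273, H2afz, which encodes H2A.Z, at 75.9, and H2afx at 47.0. A further 5 (H2afv, Cenpa, H2afy, H3f3a and H2afj) lay between 12.0 and 25.5 CPM per kb, below Hist1h1c (28.7) but above every H2A, H2B, H3 and H4 gene of the clusters. H1fx was at 0.0033 CPM per kb and H2afy2 at 0. The highest values of the clusters were 0.661 CPM per kb among H2A genes (Hist3h2a), 8.02 among H2B (Hist1h2bc), 0.414 among H3 (Hist1h3g) and 6.38 among H4 genes (Hist1h4i). These are values of poly(A)-selected libraries, in which mRNAs that end at the stem-loop are expected to be lost, so they do not give the relative amounts of all histone mRNAs in the cells.

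Between the populations, 1 of the 23 histone genes tested passed the threshold, and it was lower in acLDL high cells. This is 4.35% of those tested, beside 4.75% of all 12572 genes tested (1.32% lower and 3.43% higher). At an unadjusted p under 0.05 there were 2 (Hist2h4 and Hist2h2be), beside 19.4% of all genes. The fitted fold change was below 0 for 17 of the 23 genes (73.9%, beside 49.4% of all genes), including all 6 H4 genes tested, 5 of 7 H2B, 3 of 3 H2A, 2 of 3 H3 and 1 of 4 H1 genes. The median log2 fold change was -0.10, and that of all genes was 0.0017. Differences of this size lie within the error of single genes, since the SE had a median of 0.36 in the histone genes against 0.056 over all genes.

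Hist2h4, an H4 gene of the chromosome 3 cluster (ENSMUSG00000091405.2, chr3:96261682-96263311, minus strand), was the gene that passed. It was at 1.33, 0.329 and 0.944 CPM in the low libraries of occasions 1, 2 and 3, against 0.495, 0.274 and 0.414 CPM in the high libraries. These values stood on 102, 27 and 67 counts and on 40, 20 and 39 counts. The acLDL high library was the lower one in all 3 occasions, while the low library of occasion 2 lay below the high libraries of occasions 1 and 3, so the populations overlapped. The log2 fold change was -1.08 (SE 0.28, edgeR adjusted p = 0.0438), and within occasions it was -1.38, -0.24 and -1.14. Without occasion 1 it was -0.83 (adjusted p = 0.247) and without occasion 3 it was -1.01 (adjusted p = 0.295), so the call rested on both. Across 12 alternatives its adjusted p ranged from 5.4e-04 to 1, and its log2 fold change from -1.31 to -0.13, always below 0. The value nearest 0 was the shrunken one of DESeq2 (adjusted p = 0.211), while with all gene identifiers (-1.05) and with no replicate block (-1.13) the call was lost at a similar fold change.

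The 7SK RNA, Rn7sk, a small nuclear RNA with no poly(A) tail, was also lower in acLDL high cells. It had 546, 40 and 162 counts in acLDL low cells and 62, 24 and 50 counts in acLDL high cells, with a log2 fold change of -2.34 (SE 0.31, edgeR adjusted p = 0.00069 in the fit of all gene identifiers, where the adjusted p of Hist2h4 was 0.0532). Within occasions it differed by -3.17, -0.53 and -2.05. Of 20 listed RNAs that lack a poly(A) tail or a conventional one, 7 passed the filter, none was called higher, and 2 (Rn7sk and mt-Rnr1) were called lower in acLDL high cells. Of the 7, 5 had a fold change below 0 and 2 above. Their medians within occasions were -0.28, -0.27 and -0.15, and the sum of all 20 differed by -0.11, -0.073 and 0.0093. For both the medians and the sum, the smallest difference was that of occasion 3. Whether carry-over of RNA without a poly(A) tail has a part in the Hist2h4 difference was not tested.

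Hist2h2be, an H2B gene of the same chromosome 3 cluster, was at 4.26, 2.88 and 2.83 CPM on the low side, against 3.13, 2.30 and 2.41 CPM on the high side. The acLDL high library was lower in each occasion, and the log2 fold change was -0.34 (SE 0.12), which did not pass over all genes (edgeR adjusted p = 0.144). Hist1h1d was at 2.11, 0.610 and 2.70 CPM against 2.19, 0.439 and 1.90 CPM, a fold change of -0.28 (SE 0.18, edgeR adjusted p = 0.443). In Hist3h2a the fold change was -0.01 (SE 0.18, edgeR adjusted p = 0.991).

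In all, 4 of the 23 genes were lower in acLDL high cells in all 3 occasions (17.4%, beside 19% of all genes) and 2 were higher in all 3 (beside 21.4%). None of the 23 had its 3 acLDL high libraries all below or all above its 3 acLDL low libraries, beside 1.61% and 1.26% of all genes.

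**Figure D3:**
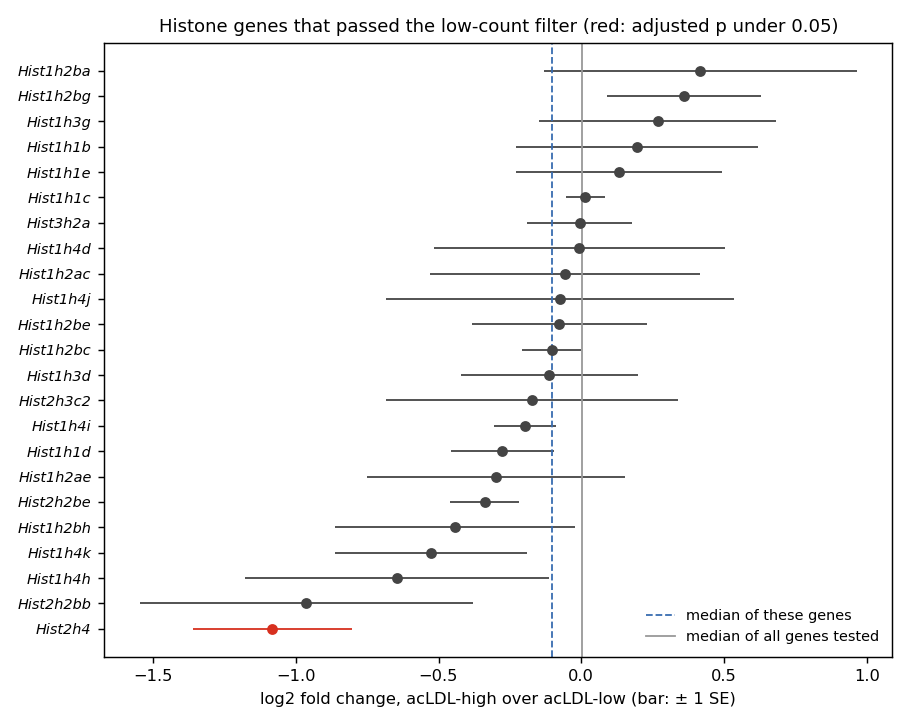
Log2 fold change of acLDL high over acLDL low cells for the 23 histone genes that passed the filter on low counts, with bars of 1 SE from the edgeR fit. Hist2h4 (-1.08, red) is the only gene with an adjusted p under 0.05, 17 of the 23 points lie below 0, and the dashed line marks their median of -0.10.

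The direction was not the same on each occasion. Of the 23 genes, 16 were lower in acLDL high cells in occasion 1, 7 in occasion 2 and 16 in occasion 3, with median log2 differences of -0.22, 0.16 and -0.29, beside 0.017, -0.0063 and 0.00066 over all genes. The summed level of all 61 genes came to 92.6, 55.3 and 70.1 CPM for the low population, against 85.3, 62.9 and 59.2 CPM for the high one. Within occasions, the sum thus differed by -0.12, 0.19 and -0.24 on the log2 scale, a mean of -0.06 ± 0.22 (SD, n = 3), which is smaller than its spread. Without Hist1h1c the mean was -0.19 ± 0.22 (SD, n = 3). By class, the mean difference was 0.01 for H1, -0.10 for H2A, -0.16 for H2B, 0.06 for H3 and -0.36 for H4, and the H4 sum differed by -0.42, 0.01 and -0.66 within occasions. In bulk samples, fewer cells that express a gene and less RNA of it per cell cannot be told apart.

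As over all genes tested, more of the histone genes differed between occasions than between populations. Of the 23 genes tested, 16 differed between occasions at an adjusted p under 0.05 (69.6%, beside 78% of all genes). From their shared replicate number, the libraries of an occasion are taken to come from the same culture. On that reading, this test measures occasions against the spread between sorted fractions. The level was highest in occasion 1 for 18 of the 23 genes, beside 29.4% of all genes. It was lowest in occasion 1 for 1 gene (beside 28.9%), in occasion 2 for 13 (beside 39.9%) and in occasion 3 for 9 (beside 31.3%). The median range between occasions was 1.25 on the log2 scale in the histone genes and 0.45 over all genes. Low counts widen such a range.

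Among the linker histone genes, Hist1h1d had the widest range, with mean levels of 2.15, 0.524 and 2.30 CPM in occasions 1, 2 and 3 (edgeR adjusted p = 8.2e-06), and Hist1h1b the narrowest, with 0.171, 0.175 and 0.219 CPM (adjusted p = 0.775). The means of both H1 genes were highest in occasion 3, but Hist1h1b was not called between occasions. In Hist1h1d, the acLDL high library of occasion 3 (1.90 CPM) lay below both libraries of occasion 1 (2.11 and 2.19 CPM). Hist1h1c was at 51.7, 38.5 and 44.2 CPM (adjusted p = 0.0014).

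Hist1h2bc was at 15.3 CPM in occasion 1, against 5.22 and 7.31 CPM in occasions 2 and 3 (edgeR adjusted p = 5e-07). Among the other H2B genes, Hist1h2bh was at 0.743, 0.223 and 0.293 CPM (adjusted p = 0.0101), while Hist2h2be had the narrowest range, with 3.70, 2.59 and 2.62 CPM (adjusted p = 0.0086). In each of these, occasion 2 held the lowest mean. In Hist2h2be and Hist1h2bh, however, the libraries of occasions 2 and 3 overlapped. The lowest library of Hist1h2bh was the acLDL high one of occasion 3 (0.106 CPM, on 10 counts). Hist2h4 had the same order of means, with 0.911, 0.302 and 0.679 CPM (adjusted p = 0.0047).

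Other genes had their lowest mean in occasion 3. Hist1h4i was at 6.03, 5.28 and 2.61 CPM (edgeR adjusted p = 8.7e-06). Hist1h4d was at 0.167, 0.293 and 0.0636 CPM (adjusted p = 0.0315) and Hist1h2ae at 0.214, 0.476 and 0.159 CPM (adjusted p = 0.0313), and these were the 2 called genes with their peak in occasion 2. In Hist1h2ae the libraries of occasion 1 (0.156 and 0.272 CPM) and occasion 3 (0.254 and 0.0637 CPM) overlapped. At the other end, Hist1h4j differed little between occasions, with 0.170, 0.131 and 0.173 CPM (adjusted p = 0.869). The remaining extremes of their classes were Hist2h3c2, with 0.267, 0.0518 and 0.0848 CPM (adjusted p = 0.0094), Hist1h3d, with 0.530, 0.557 and 0.344 CPM (adjusted p = 0.246), and Hist3h2a, with 1.86, 0.989 and 1.41 CPM (adjusted p = 0.0078).

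The occasions were also compared by transcript model. The summed level of the extended models was 67.4, 48.9 and 53.5 CPM in occasions 1, 2 and 3, and that of the long models with no stem-loop was 19.0, 7.92 and 9.96 CPM. The 18 genes whose model ends near the stem-loop, which sum to under 1 CPM, were at 0.821, 0.910 and 0.265 CPM. The highest value was that of the acLDL low library of occasion 2 (1.13 CPM), while among the acLDL high libraries occasion 1 (0.706 CPM) lay above occasion 2 (0.686 CPM). The 18 short models with no stem-loop were at 1.67, 1.27 and 0.907 CPM, highest in occasion 1. The summed level of the 28 listed S phase genes, mostly replication factors and Slbp among them, was 2338, 4268 and 1896 CPM. All 28 differed between occasions, beside 78% of all genes. The clustered histone genes as a whole therefore peaked in occasion 1 (89.0, 59.1 and 64.6 CPM), where the S phase genes did not. The sum of the 20 listed RNAs without a conventional poly(A) tail was also highest in occasion 1, at 1909, 1206 and 1078 CPM. The median of the 7 that passed the filter was 7.40, 7.36 and 6.59 on the log2 CPM scale. By the median, occasions 1 and 2 were thus close. The part of these RNAs in the histone levels was not tested.

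**Figure D4:**
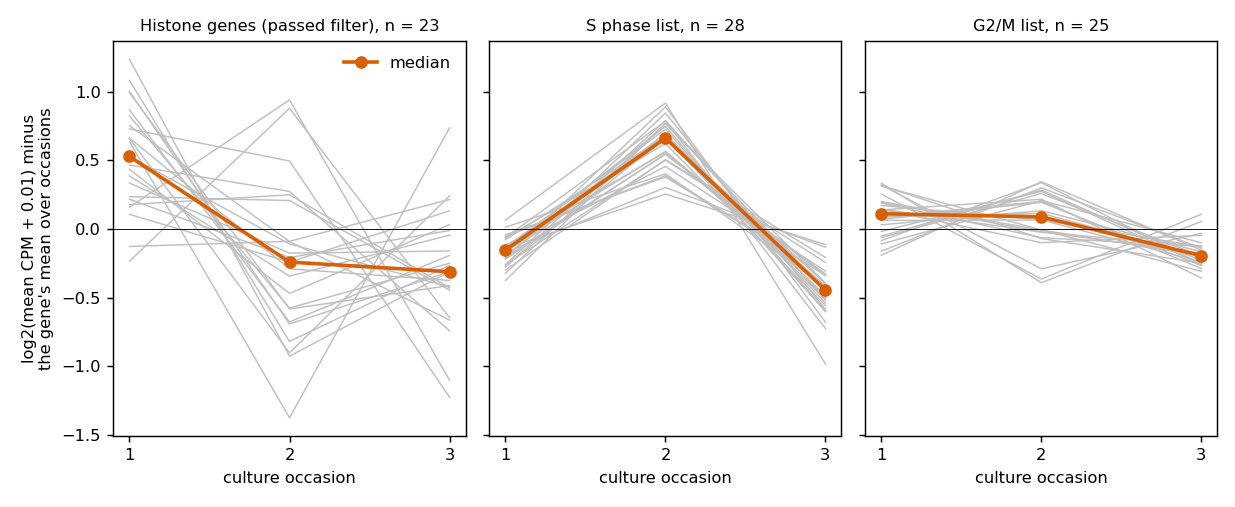
Log2 of the mean CPM of each occasion plus 0.01, minus the mean of the gene over the 3 occasions, with a grey line for each gene and orange for the median of the panel. The histone genes are mostly highest in occasion 1 (18 of 23), while the summed level of the 28 S phase genes peaks in occasion 2 at 4268 CPM.

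None of the 24 genes of histone mRNA processing and transcription was called, beside 4.75% of all genes. Their median log2 fold change was -0.03, with 18 below 0 (beside 49.4% of all genes). Slbp, whose product binds the stem-loop, was at 58.0, 85.2 and 48.7 CPM in the low libraries, against 61.0, 74.2 and 48.3 CPM in the high libraries (log2 fold change -0.05, SE 0.053, edgeR adjusted p = 0.667). It differed between occasions, with means of 59.5, 79.7 and 48.5 CPM (adjusted p = 1.8e-06). Npat, the coactivator of histone gene transcription, was at a mean of 44.5 CPM, with a log2 fold change of -0.02 (SE 0.046).

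Of the 9 replacement histone genes tested, 2 were called higher in acLDL high cells and none lower, beside 3.43% and 1.32% of all genes. Their median log2 fold change was 0.09. H2afx, which encodes the histone phosphorylated at DNA breaks, was at 58.2, 61.5 and 53.9 CPM in the low libraries, against 73.7, 75.0 and 67.8 CPM in the high libraries, so its populations did not overlap (log2 fold change 0.32, SE 0.043, edgeR adjusted p = 0.0011). The H2afx gene is itself read into both a stem-loop and a polyadenylated mRNA. Cenpa, the centromeric H3, was called with a log2 fold change of 0.21 (SE 0.042, edgeR adjusted p = 0.0127). Of 19 histone chaperone genes, Asf1b alone was called (beside 4.75% of all genes), with a log2 fold change of 0.17 (SE 0.043, edgeR adjusted p = 0.0361).

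Cell cycle genes were counted for comparison. Among the 28 S phase genes, none was called higher and 1 was called lower (Cdt1, -0.19, SE 0.049, edgeR adjusted p = 0.0458), with a median of -0.0093. Their medians within occasions were 0.13, -0.19 and -0.0058, against -0.22, 0.16 and -0.29 for the histone genes. Among the 25 G2/M genes, 18 were called higher and none lower, with a median of 0.27 and all 25 above 0. Over all genes tested, 3.43% were called higher and 1.32% lower. These lists were written with earlier results of these data known.

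**Figure D5:**
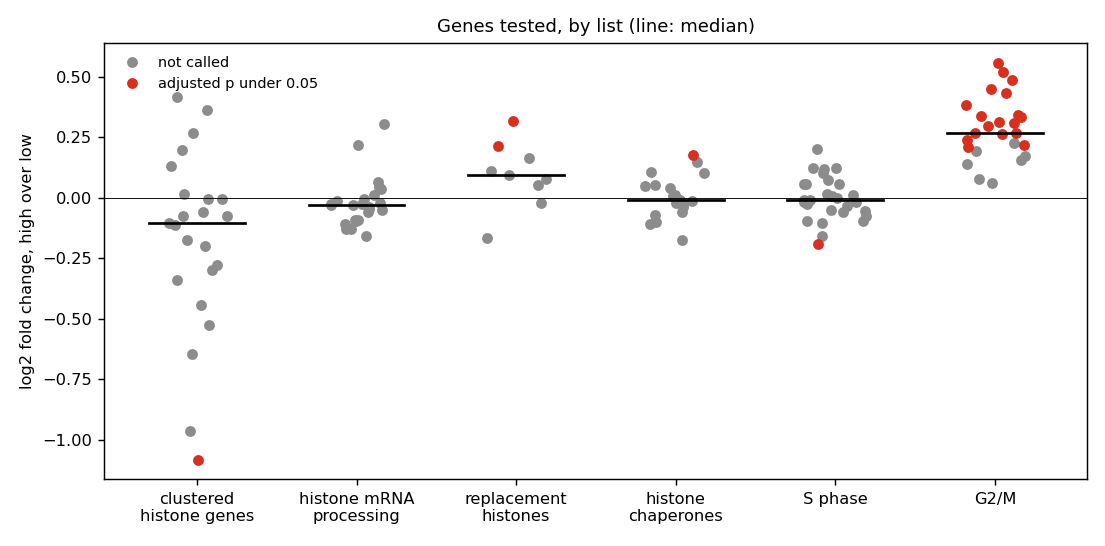
Log2 fold change of acLDL high over acLDL low cells for the genes tested in each list, with a point for each gene, red for an adjusted p under 0.05 and a line for the median. The clustered histone genes spread from 0.42 to -1.08 around a median of -0.10, while the 25 G2/M genes all lie above 0 and 18 of them are red.

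The libraries held 70263372 to 94216786 counts each, of which 98.4% to 98.7% fell in the table's genes, and 4535 to 7122 counts per library were in the histone genes. No pair of libraries agreed within sampling noise. The cells are labelled as breast cancer cells, and all 8 epithelial markers were detected. They summed to 3246 to 5824 CPM. In acLDL high cells, 2 of them (Cldn4 and Cldn7) were called higher, beside 3.43% of all genes, with all 8 fold changes above 0. The 7 macrophage markers summed to 16.2 to 21.99 CPM with Adgre1 at 0, and of 3 tested Cd14 was called higher in acLDL high cells (log2 fold change 0.32, SE 0.072, edgeR adjusted p = 0.0246). Their part in the histone results was not tested. The 7 endothelial markers summed to 1.49 to 2.60 CPM with Emcn at 0, and the 5 fibroblast markers to 28.6 to 42.8 CPM with Lum at 0.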

How the data were processed

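RNA was poly(A)-selected (TruSeq Stranded mRNA, 500 ng, 8 PCR cycles) and sequenced as 2 × 50 bp reads. The authors aligned reads to mm10 with STAR 2.5.2a and deposited raw counts per gene made with featureCounts 1.4.3-p1. The annotation release, strand setting and treatment of reads with several matches are not given in the sources used here. Of counts from 1 to 20, 71.3% were even, so the mates of a pair appear to have been counted separately. The deposited comparison table (DESeq2 1.20.0 fold changes and p-values) served only for gene names and the choice of protein-coding genes.

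Counts were tested with edgeR 4.0.16 (quasi-likelihood F test, TMM scaling, filterByExpr, R 4.3.3) with population and replicate number as terms, since the study's methods include replicate. P-values were adjusted by Benjamini-Hochberg over the 12572 genes that passed the filter and those under 0.05 were called. Same-numbered libraries deviated together (correlations of 0.795, 0.846 and 0.799, against -0.557 to -0.0882 for other pairs). The pairing comes from the labels' numbers and the 3 stated occasions. CPM used the TMM-scaled library totals. Transcript ends, stem-loops, poly(A) signals and shared windows came from GENCODE M21, which may not be the authors' annotation. The limit of 100 bases past the stem-loop was set after the data were seen. The code was tested on simulated data. The members and lists were chosen with earlier results of these data known. Named were members that passed, the 3 with the highest level in each class, the widest and narrowest range between occasions in each class, Slbp, and called genes of the histone processing, replacement and chaperone lists. Npat, Cdt1, Cd14, Cldn4, Cldn7, Rn7sk, Hist4h4, Hist3h2ba, Hist1h2ab, Hist1h4n, Hist1h4a and Hist1h2bp were named after their values were seen. Alternatives were DESeq2 1.42.0, other scalings and filters, all gene identifiers, GC and length trends removed, no replicate block, each replicate left out and, added after the data were seen, halved counts.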

Additional observations from a re-analysis of the deposited data

How the results depend on the processing

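The count of histone genes called between the populations was 1, and rested on Hist2h4. It was 0 with no replicate block (0 of 20 tested at an unadjusted p under 0.05; no gene of 12329 was called in that fit), with all gene IDs of the count table, with DESeq2 and the replicate block (which gave an adjusted p to 7 of the 61 genes), and at an adjusted p under 0.01. With 1 replicate left out it ranged from 0 to 1, at 0 without replicate 1 or 3. The count of histone genes that differed between occasions was 16 of 23 tested. It was 8 of 19 without replicate 1, 12 of 22 without replicate 2 and 10 of 22 without replicate 3. With DESeq2 it was 8 of 49 with an adjusted p, and at an adjusted p under 0.01 it was 9 of 23. The count over the 5 other lists (106 genes), 22, was 0 with no replicate block and 12 at an adjusted p under 0.01. It ranged from 6 (without replicate 3) to 32 with 1 replicate left out. Apart from the fit with no replicate block, the shares over all genes in these alternatives are not given here. With 1 replicate left out, the median fold change (-0.10) ranged from -0.30 (without replicate 2) to 0.029 (without replicate 1), and the summed difference (-0.06) from -0.18 (without replicate 2) to 0.034 (without replicate 3). Fold changes changed sign in 12 named genes. With all gene IDs these were Hist3h2a (0.0079), Hist1h2ac (0.00035) and Hist1h4d (0.0025). Hist3h2a also did with no filter (0.00069) and with DESeq2 (0.0014), and Hist1h4d with the length trend removed (0.0034). With 1 replicate left out, the fold change ranged from -0.16 to 0.13 in Hist3h2a, -0.56 to 0.74 in Hist1h2ac, -0.19 to 0.60 in Hist1h4d, -0.40 to 0.26 in Hist1h2be, -0.31 to 0.27 in Hist1h3d, -0.10 to 0.12 in Hist1h1c and -0.11 to 0.028 in Slbp. It ranged from -0.15 to 0.37 in Hist1h1e, -0.75 to 0.16 in Hist1h2ae, -0.27 to 0.0066 in Hist1h2bc, -0.78 to 0.15 in Hist1h2bh and -0.75 to 0.97 in Hist1h4j. The causes were not tested. None of these genes was called in any alternative. Of the 61 histone genes, 38 had too few counts to pass the filter, and with no filter the count between the populations was still 1.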

Other observations

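Outside the authors' protein-coding table, 9 further gene identifiers carried a clustered histone name, and 6 of them had 0 counts in all 6 libraries. Hist1h2al had 15, 6 and 4 counts in the acLDL low libraries of occasions 1, 2 and 3 and 10, 6 and 12 counts in the acLDL high libraries. These values overlap between the populations, and the gene entered no comparison above.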
